A study of Homo sapiens with 2 samples.

Results

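In Huh-7 cells, 524 of the 239322 listed exons had no read in control cells and at least 10 reads after treatment with BS008, an amiloride derivative. Huh-7 is a human hepatocellular carcinoma cell line. Control cells received 0.1% DMSO for 24 h and treated cells received 0.1 mM BS008 for 24 h, with 1 library for each condition. The labels do not say how much DMSO the treated cells received. The 524 exons were chosen by these same counts, so their read numbers describe the choice and are no independent evidence of an effect. They were sorted into kinds by the same-strand exons within 10 kb that were not themselves among the 524. The limits between the kinds were set by choice, and the shares depend on them. For 134 exons (25.6%) these surrounding exons together had under 10 reads in control cells and at least 10 in treated cells. Another 113 (21.6%) lay among exons that were expressed in control cells and at least 2-fold higher in treated cells. For 128 (24.4%) the surrounding exons were expressed and stayed within 2-fold, and for 7 (1.34%) they were at least 2-fold lower. The remaining exons stood among exons with under 10 reads in both libraries (100, or 19.1%) or had no such exon around them (42, or 8.02%). An exon with no control read and at least 10 after BS008 is left out of the surroundings by this definition. With the 524 exons also counted as neighbours of each other, the first kind held 162 exons (30.9%), of which 102 had at least 1 of the 524 as a neighbour. Counted in this way, 47.3% of the 524 had at least 10 control reads around them, against 92.8% of all exons with at least 10 reads after BS008.

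An exon can gain reads in different ways. When a silent gene is switched on, all exons of its transcript appear together, and exon counts rise along the whole stretch. When the splicing machinery starts to include an exon that it used to skip, or when a new promoter or a new polyadenylation site is used, reads appear on that exon while its neighbours keep theirs. Exon counts cannot show which exons are joined in 1 transcript, because that needs reads across junctions, but the reads on neighbouring exons separate a stretch that gained reads as a whole from an exon that gained reads alone.

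The libraries held 55476654 reads on exons in control cells and 53578432 in treated cells. Each exon is listed by chromosome, start, end and strand on build hg19 and without a gene name, and coordinates are given here as listed. A sequence of this build was not used here, so no exon sequence is shown and liver markers were not looked up. In control cells a count of 0 allows up to 3 reads, or 5.41e-06% of the library. Because no condition has a second library, the variation between cultures was not measured. Cultures, library preparations and treatment differ together between the libraries and cannot be told apart. The listing holds 12 pairs of exons with the same coordinates on opposite strands, 5 of them with reads, and both strands had the same count in all 12. Reads from overlapping genes on opposite strands could therefore not be separated, which touches the 9 of the 524 exons that overlap an exon of the other strand.

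Most of the 524 exons had few reads after BS008. Their counts ranged from 10 to 7855 with a median of 15, and 371 of them had 10 to 19 reads, 118 had 20 to 49, 22 had 50 to 99 and 13 had 100 or more. Against the 3 reads that a count of 0 allows in control cells, the exon with 7855 reads was at least 2711-fold higher, the median exon at least 5.18-fold and the exons with 10 reads at least 3.45-fold. Per length, they ranged from 0.0251 to 2221 RPKM with a median of 1.40 RPKM. Just inside the limit, 74 exons had exactly 10 reads, and just outside it 86 exons had no control read and 9 after BS008. A further 382 exons with at least 10 reads after BS008 had 1 read in control cells.

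Among all 125597 exons with at least 10 reads in treated cells, these 524 make up 0.417%. The opposite pattern, at least 10 control reads and none after BS008, was found for 210 of 124269 exons (0.169%). The share of exons with no control read fell with the number of reads after BS008. It was 2.49% of 14926 exons with 10 to 19 reads, 0.445% of 26543 with 20 to 49, 0.0921% of 23898 with 50 to 99 and 0.0216% of 60230 with at least 100. The corresponding shares for the opposite pattern were 1.24%, 0.136%, 0.00881% and 0.0016%. Above 100 reads, 13 exons appeared in treated cells and 1 was lost from them. An exchange of the 2 libraries thus gave fewer exons in every range, although the control library was the deeper. These are counts of exons and not of separate events, since several of the 13 share a stretch on chromosome 1 or on chromosome 4.

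The exons that appeared were long. Their median length was 203 bases (quartiles 123 and 569.5, range 15 to 8911), against 146 bases for all exons with at least 10 reads after BS008 and 130 bases for the 210 exons of the opposite pattern. Lengths of at least 1000 bases were found for 88 of them (16.8%), against 9.78% of all exons with at least 10 reads after BS008. A minimum count selects long exons, since these collect more reads at the same RPKM. Within the range of 10 to 19 reads, the 371 exons without a control read still had a median of 186 bases, and the 14555 exons with at least 1 control read had 131. The length varied with the surroundings, as it did for exons in general. Exons in stretches without any control read had a median of 1301 bases, and those without a neighbour 776. Those in stretches with 1 to 9 control reads had 183, and those beside expressed exons 169. For all exons with at least 10 reads after BS008, these medians were 668, 243, 395.5 and 142. In stretches with 1 to 9 control reads, the exons that appeared were thus the shorter.

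**Figure D1:**
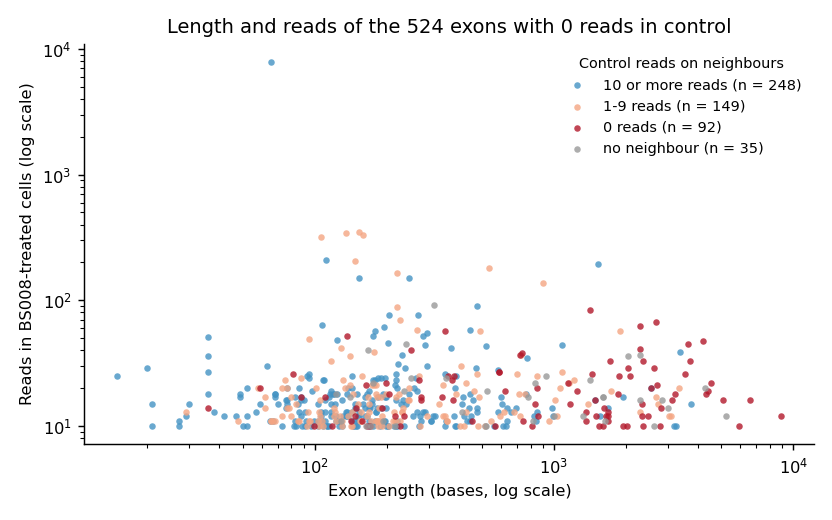
Length of each of the 524 exons (bases, log scale) against its reads in BS008-treated cells (log scale), coloured by the control reads summed over same-strand exons within 10 kb. Most points lie between 10 and 21 reads, the exons in stretches without control reads lie to the right with a median of 1301 bases, and 1 exon of 66 bases stands at 7855 reads.

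Position along the stretch was read in the direction of transcription. An exon was called first or last where no same-strand exon lay within 10 kb upstream or downstream of it. Of the 524 exons, 329 (62.8%) were internal, 58 (11.1%) first, 100 (19.1%) last and 37 (7.06%) had no such exon on either side. Among all exons with at least 10 reads after BS008, 74.2% were internal, 9.58% first and 11.7% last. The higher share of last exons held within the range of 10 to 19 reads, at 17.5% against 10.3% of exons that had control reads. Last exons usually carry the 3′ untranslated region and are the longest of a transcript, and the 100 last exons had a median of 1114 bases against 164 for the internal exons. Of the 92 exons in stretches without control reads, 50 were last, with a median of 1793.5 bases, and 66 were the longest exon of their stretch. In stretches with few control reads 36 of 149 were the longest, and in expressed stretches 37 of 248. The exons in stretches without control reads had a median of 3 neighbours, against 4 and 6 in these others. An exon is more easily the longest among fewer neighbours, and the minimum of 10 reads favours long exons. The same share for other exons was not computed, so these counts do not set the exons that appeared apart. The gaps to the nearest exons were like those of other exons, with a median of 1278 bases upstream and 1127 downstream against 1196 and 1199 for all exons with at least 10 reads after BS008.

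The control reads around each exon were then summed over all same-strand exons within 10 kb, the other members of the 524 included. None was counted for 92 exons (17.6%), 1 to 9 for 149 (28.4%) and at least 10 for 248 (47.3%), and 35 had no neighbour. Among all exons with at least 10 reads after BS008, the same shares were 0.726%, 1.89% and 92.8%, with 4.54% lacking a neighbour. Few reads on an exon go with few reads around it, so the range of 10 to 19 reads was set apart. There, 15.4% of the 371 exons without a control read lay in stretches with no control reads and 50.4% beside expressed exons, against 1.68% and 85.5% of the 14555 exons with control reads. The exons that appeared lay in stretches silent in control cells more often than other exons with as many reads. These sets were split by their own control reads, so the difference is no independent evidence. Some of these stretches also hold several of the 524. Without the 524 as neighbours of each other, 16.2% were in stretches with no control reads and 47.3% beside expressed exons. Of the 210 exons of the opposite pattern, 29 (13.8%) lay in stretches with 0 reads in treated cells and 127 (60.5%) in stretches with at least 10. A window of 10 kb can reach into the next gene. When only the nearest exon on either side was read, 181 exons (34.5%) had no control reads beside them and 142 (27.1%) had at least 10. Of the 248 exons in expressed stretches, 26 had nearest exons with 0 control reads and 80 had nearest exons with 1 to 9.

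**Figure D2:**
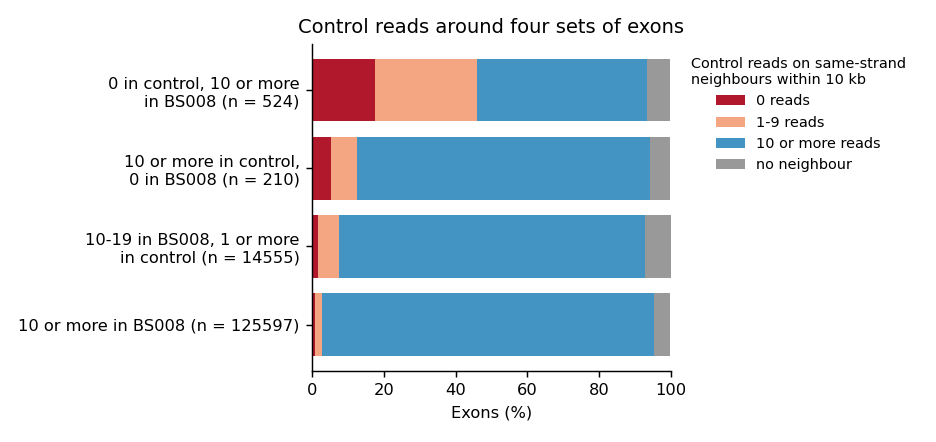
Share of exons (%) by the control reads summed over all their same-strand neighbours within 10 kb, for 4 sets of exons. Stretches with 0 control reads hold 17.6% of the 524 exons without control reads and 5.24% of the 210 exons lost after BS008. They hold 1.68% of exons with 10 to 19 reads that had control reads, and 0.726% of all exons with at least 10 reads after BS008. The 210 exons were chosen for having control reads. By the reads in treated cells, the like measure for them, 13.8% lay in stretches with 0 reads.

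Neighbours that were not themselves among the 524 exons were then read alone. For 382 exons these neighbours had at least 10 reads in either library. They were at least 2-fold higher in treated cells around 185 exons (48.4%) and at least 2-fold lower around 7 (1.83%). The share that was higher depended on the distance, at 29.2% within 1 kb and 27.5% within 100 kb. Around all exons with at least 10 reads after BS008 the same happened within 10 kb for 5.64% and 5.39%. The median log2 ratio of the neighbours was 0.95 around the 382 exons and -0.05 around all exons. The ratio was above 0 for 346 of the 382 (90.6%), against 46.4% for all exons with at least 10 reads after BS008. Around the exons of the opposite pattern, read in the same way without these exons as neighbours of each other, 0 of 170 had neighbours at least 2-fold higher and 68 (40%) had neighbours at least 2-fold lower, with a median of -0.90. Within 10 kb, reads on the surrounding exons thus mostly moved the same way as the exon itself, by at least 2-fold around 48.4%. An exon passes the rule more easily where its whole stretch is higher in treated cells, and the opposite pattern where it is lower. The shared direction is therefore partly set by the choice of the exons and is no independent evidence. With 1 library for each condition these counts carry no test.

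**Figure D3:**
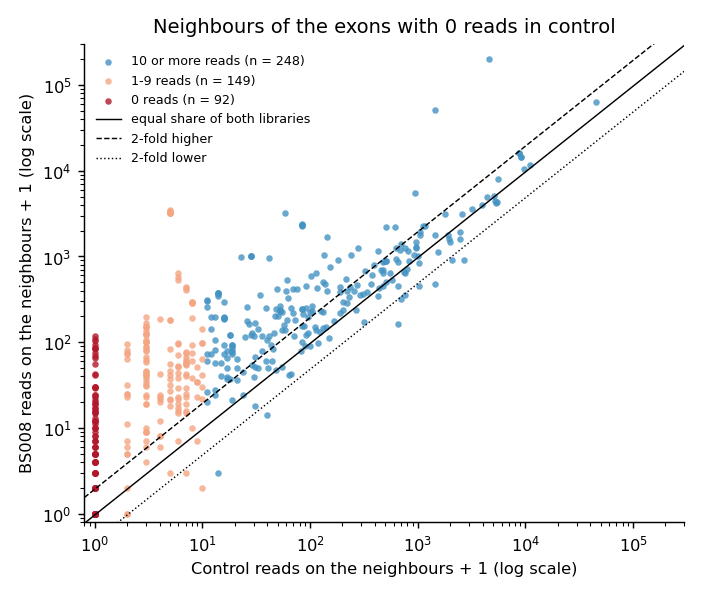
Reads summed over all same-strand neighbours within 10 kb of each exon, other members of the 524 included, in control cells (x axis) and BS008-treated cells (y axis), both with 1 added and on log scales. The 92 exons whose neighbours had no control reads stand at the left edge, next to the 149 with 1 to 9 control reads, and the 248 exons in expressed stretches spread around and above the line of equal share.

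The clearest stretch that appeared as a whole was on the minus strand of chromosome 1. Its 7 exons from 26366268 to 26372604 held no control read, and in the order of transcription they had 58, 166, 207, 348, 328, 317 and 343 reads after BS008. The exon that follows them, from 26364514 to 26365796 and 1283 bases long, held 4 control reads and 1762 after BS008. A pair of exons upstream, from 26380384 to 26380455 and from 26377798 to 26378374, had 0 reads in both libraries. Per length, the first 3 of the 7 exons reached 4.05, 14.0 and 26.3 RPKM and the other 4 reached 38.3 to 55.8 RPKM. Coverage thus rose from the first exon that had reads towards the middle of the stretch. In control cells all 4 reads of the stretch were on the last exon, which is also the longest.

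On the plus strand of chromosome 17, 6 exons between 47572655 and 47592365 had no control read. After BS008 they had 14, 11, 25, 40, 4 and 62 reads in the order of transcription, and 5 of them passed the limit. The exon with 4 reads, from 47589254 to 47589414, was the exception. The last of them is 2296 bases long and reached 0.504 RPKM, and the fourth, of 253 bases, reached 2.95 RPKM. No other same-strand exon lay within 10 kb, so the whole stretch was without control reads.

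The cluster with the most exons was on the plus strand of chromosome 10, where 9 exons between 73039578 and 73055717 had 0 control reads and 10 to 25 reads after BS008. The span holds 13 exons, with 2 reads in all in control cells and 180 after BS008. Downstream of it, 8 control reads and 189 after BS008 were counted between 73058869 and 73062635. Here 7 of the 9 exons belong to runs of 3 exons whose lengths are listed at more than 1 place, and reads could have been shared with such copies. On the minus strand of chromosome 5, 5 exons between 57751112 and 57754355 had 0 control reads and 10 to 19 after BS008. The 3 exons among them that had control reads held 5 in control cells, and the 8 exons of the span together had 125 after BS008. Of these 5 exons, 2 lie in runs of lengths listed at more than 1 place. In both clusters the exons without control reads stood among exons with 1 to 3, and no exon of either span had more.

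A cluster on the minus strand of chromosome 12 lay beside expressed exons. Its 7 exons between 6747841 and 6756580 had 0 control reads and 13 to 26 after BS008, and with the 3 exons between them the span had 5 control reads and 257 after BS008. The next exon upstream (6759705 to 6760400) held 121 control reads and 142 after BS008, and the 6 exons further upstream held 29 to 105 and 31 to 122, respectively. The rise thus began at a sharp boundary between 6756580 and 6759705, a gap of 3124 bases. Without gene names, it is not known whether the exons on the 2 sides belong to 1 gene or to neighbouring genes. Because of the exons upstream, those nearest to the boundary were counted as lying in an expressed stretch.

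**Figure D4:**
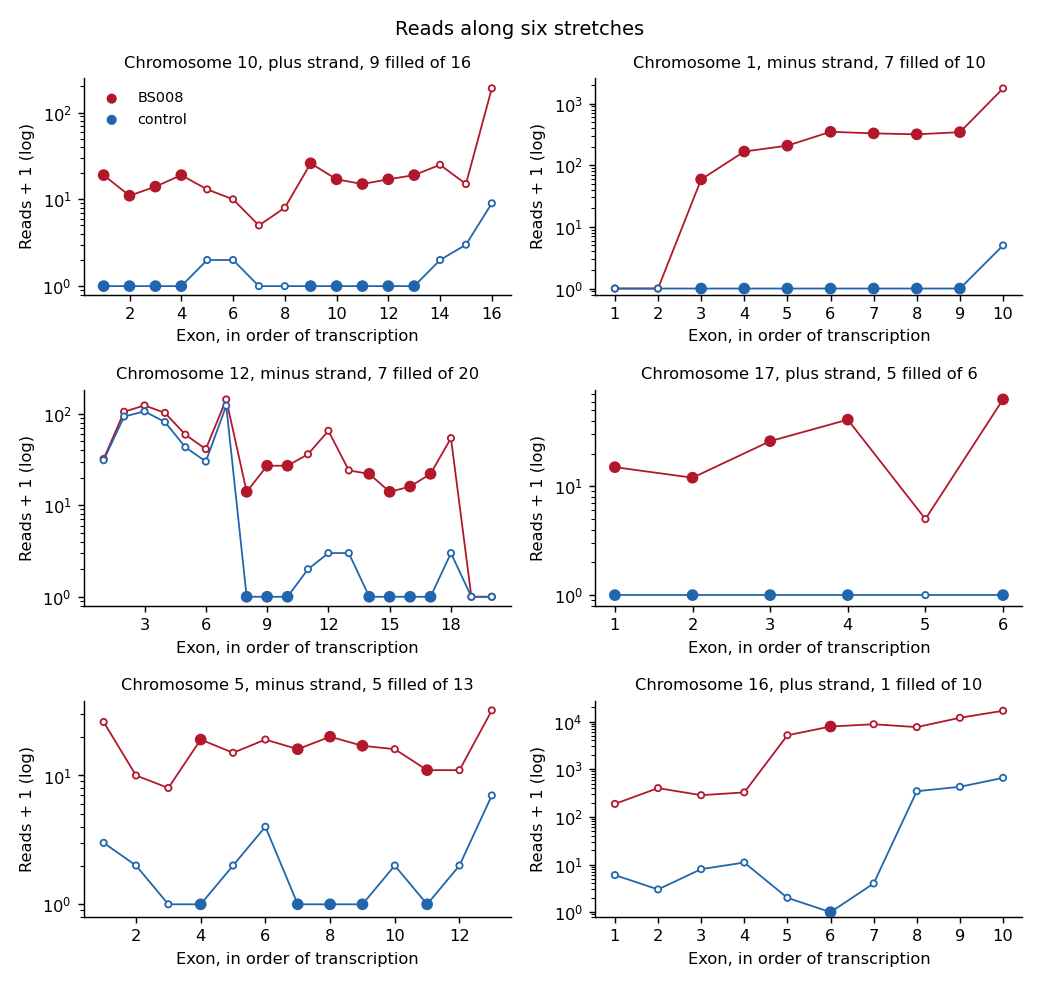
Reads with 1 added (log scale) on consecutive exons in the order of transcription, for the 5 clusters with the most exons and for the stretch of the exon with the most reads, each with the same-strand exons within 10 kb. Filled points are exons with 0 control reads and at least 10 after BS008, and the chromosome 12 panel shows the boundary between exons with like reads in both libraries and exons seen mainly after BS008.

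The clusters next in size each had 4 exons and, apart from 1 exon on chromosome 4 that is among the 10 with the most reads, were chosen after their values were seen. On the plus strand of chromosome 4, 6 exons from 75310853 to 75320723 held 0, 53, 31, 0, 0 and 0 control reads and 76, 1121, 783, 151, 210 and 150 after BS008. The exon with 210 reads, from 75318261 to 75318372, was at 35.0 RPKM, and the exons that also had control reads were at 84.0 and 72.3 RPKM. At the ratio of control to BS008 reads on these 2 exons, the others would have had 3.35 to 9.26 control reads. On the minus strand of chromosome 2, 7 exons from 157182662 to 157189287 had 7 reads in all in control cells and 651 after BS008, and 4 of them had no control read. On the plus strand of chromosome 5, 4 consecutive exons from 32774814 to 32784989 had 52, 49, 18 and 24 reads after BS008 and none in control cells. On the plus strand of chromosome 21, 4 consecutive exons from 37635844 to 37649398 had 11 to 18 reads after BS008, and the exons on either side had 0 to 3 in control cells. All 4 lie in runs of exon lengths listed at more than 1 place, so their reads could have been shared with copies.

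The exon with the most reads was internal and short. It lies on the plus strand of chromosome 16 from 56686483 to 56686548, is 66 bases long, and held no control read and 7855 reads after BS008 (2221 RPKM). The exon before it held 1 control read and 5152 after BS008, and the exon after it had 3 and 8777. Its nearest exons were thus nearly silent in control cells. The further exons within 10 kb were not, since the 9 neighbours together had 1455 control reads and 51560 after BS008. For this reason the exon counts among those in expressed stretches, and the 222 control reads predicted from all its neighbours are not a measure of a change in splicing. It held 7855 of the 20153 reads on all 524 exons in treated cells.

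Among the 248 exons in expressed stretches, the control reads to be predicted from the neighbours were computed as the exon's reads after BS008 times the ratio of control to BS008 reads on the neighbours. At least 10 were predicted for 82 exons, although 0 were counted, and for the same 82 when the 524 were not counted as neighbours of each other. Of all 112775 exons with at least 10 reads after BS008 and at least 10 predicted control reads, 0.0727% had 0. For 61 of the 82 the nearest exons alone also gave at least 10. These 82 exons had a median length of 218 bases, 59 were internal, and 30 had a length that is a multiple of 3, which leaves the reading frame unchanged if such an exon is included. Over all 201 internal exons in expressed stretches, 72 (35.8%) had such a length, close to the 38% of internal exons with at least 10 reads after BS008. Of the 82 exons, 63 (76.8%) had a lower RPKM in treated cells than their neighbours together, with a median ratio of 0.24. For all exons in expressed stretches with at least 10 reads after BS008 these values were 40.6% and 1.18, and for those with 10 to 19 reads and a control read they were 54.9% and 0.907. The choice of exons without control reads beside expressed exons itself favours low coverage, and the neighbours can include another gene.

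After the exon on chromosome 16, the largest prediction was 106 control reads, for an exon of chromosome 2 (minus strand, 73994551 to 73996079). It held no control read and 193 reads after BS008. The exon upstream of it had 95 and 199 reads and the exon downstream 145 and 157, and the gaps to them were 312 and 216 bases. It is 1529 bases long and reached 2.36 RPKM in treated cells, against 60.9 and 62.3 RPKM for the exons on either side. A long exon at low coverage thus appeared between short exons that were expressed in both libraries.

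Other predictions were at exons on the edge of expressed stretches; in what follows, pairs of counts give control reads first and reads after BS008 second. On the plus strand of chromosome 11, the last exon of a stretch, from 34074528 to 34074732, had 0 and 76 reads, while the exon 344 bases upstream had 632 and 576. On the minus strand of chromosome 6, the first exon of a stretch, from 30585001 to 30585020 and 20 bases long, had 0 and 29 reads, while the exon 225 bases downstream had 742 and 301. In both cases the reads appeared on the outer exon while the next exon did not gain reads. A last exon on chromosome 20 (minus strand, 13597252 to 13597770) had 0 and 43 reads, with 47 and 47 on its neighbours.

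Of the remaining exons named by this rule, some rest on fewer or uncertain neighbours. An exon of chromosome 7 (plus strand, 149561198 to 149564567) had 0 and 39 reads, with 765 and 350 on the neighbours, and its nearest exon upstream had 2 and 12. Another exon of chromosome 11 (minus strand, 3398847 to 3399130) had 0 and 52 reads, with 84 and 101 on the neighbours. An exon of chromosome 3 (minus strand, 36868311 to 36869866) had 0 and 12 reads, and its prediction of 78 control reads rests on 2 reads of the neighbours after BS008. A pair of exons of 36 bases, on the minus strands of chromosome 16 (29498515 to 29498550) and chromosome 10 (47197538 to 47197573), had 0 and 51 and 0 and 36 reads. Both lie in runs of exon lengths listed at more than 1 place, so the counting could have placed their reads on another copy. Of the 82 exons, 10 lie in such runs, which hold 17.3% of all exons with at least 10 reads after BS008.

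Many exons in silent surroundings had few reads around them after BS008 as well. The 92 exons in stretches without control reads belong to 76 clusters of the 524 exons. Their neighbours outside the 524 had 0 reads after BS008 around 21 exons, 1 to 9 around 54 and at least 10 around 10, and 7 exons had only members of the 524 as neighbours. In such a stretch, any exon with at least 10 reads after BS008 is itself among the 524. The choice therefore keeps the reads on neighbours outside the 524 low. With the members of the 524 counted too, 36 had at least 10 reads around them, a number that the choice of the exons raises. Where the neighbours outside the 524 had reads, they were at a lower RPKM than the exon for 42 of 64 exons. In stretches with 1 to 9 control reads this was so for 113 of 147. The choice favours the exon here, since it needed at least 10 reads and neighbours without control reads had to stay below that. The same share for other exons was not computed, so these counts do not show that an exon gained reads alone. In a stretch with few control reads, an exon of chromosome 7 (minus strand, 82791661 to 82792197) had 0 and 182 reads, and its only neighbour had 6 and 28. The following were chosen after their values were seen. The exon on the plus strand of chromosome 11 from 112162043 to 112163452 had 0 and 84 reads, with 0 and 7 on its neighbour. On the minus strand of chromosome 1, an exon without any neighbour, from 237167403 to 237167718, had 0 and 91 reads.

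Along the chromosomes, the 524 exons formed 425 clusters when exons on 1 strand were joined across gaps of at most 10 kb. Of these, 367 held 1 exon, 39 held 2, 10 held 3, 4 held 4 and the 5 largest held 5 to 9. Clusters of at least 2 held 157 exons (30%), against 51 of 210 (24.3%) for the opposite pattern, where the largest cluster held 4. A larger set forms more and larger clusters by number alone, so these values do not show which set was more clustered. In 64 cases 2 of the exons were consecutive in the listing. Exons that appeared were found on 23 chromosomes and not on Y or the mitochondrial chromosome. Their number for each 1000 exons with at least 10 reads after BS008 ran, where there was any, from 1.01 on chromosome 22 (3 exons) to 6.77 on chromosome 6 (42 exons). With each cluster counted once, the same 2 of these 23 chromosomes were at the ends, with 1.01 and 5.16. Exons of a cluster share their stretch and are not separate events.

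**Figure D5:**
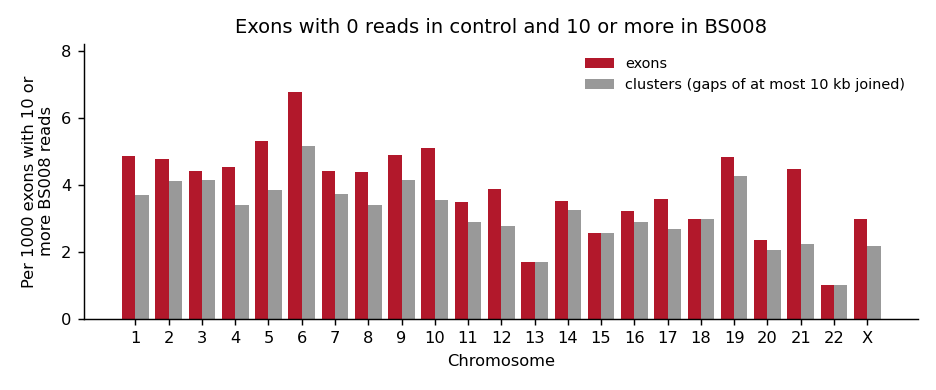
Number of exons with 0 control reads and at least 10 after BS008, and of clusters of them, for each 1000 exons with at least 10 reads after BS008, for the 23 chromosomes that hold such an exon. Among these, chromosome 6 stands highest with 6.77 exons and 5.16 clusters, and chromosome 22 lowest with 1.01 for both.

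At the scale of 1 Mb, 353 of 2269 windows with at least 1 exon of 10 or more reads after BS008 (15.6%) held at least 1 of the exons, and 14 windows held 3 or more clusters. The windows with the most clusters, with 4 each, were from 41 to 42 Mb on chromosome 6, with 7 exons among 98 that had at least 10 reads after BS008, and from 116 to 117 Mb on chromosome 1, with 4 exons among 49. No window held more than 4 clusters.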

How the data were processed

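RNA from Huh-7 cells was sequenced from 1 control and 1 BS008-treated library. For each exon the authors deposited a raw count, which is not normalized, and an RPKM value, scaled to exon length and to the summed counts of the library; recomputed RPKM differed from the deposited values by at most 4.72e-06. The submitters' processing notes name the build hg19. The aligner, counting tool and annotation are not given in the sources used here. Depth was 55476654 reads in control and 53578432 in BS008, and a count of 0 was taken to allow up to 3 reads; such limits cover counting error only.

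The reference at hand is on GRCh38, so no gene names were assigned and no sequence was read. The gene lists and hepatocyte markers that needed names were therefore not analysed here.

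The exons described had 0 control and at least 10 BS008 reads; this rule, the lists and the settings were chosen with earlier results of these data known. Neighbours were same-strand exons at most 10 kb away, overlapping exons included, and the exons described were counted as neighbours of each other unless stated. Summed neighbour reads were compared as log2 ratios of CPM with a pseudocount of 0.5, where either library had at least 10 reads. Exons named are the 10 with the most BS008 reads, the 5 clusters with the most of these exons, and the 10 with the most control reads predicted from the neighbours; others are marked as chosen after their values were seen. Scripts were tested on simulated data. With 1 library for each condition no test between conditions was made. Python 3.11.15, numpy 2.4.6, pandas 2.3.3, scipy 1.17.1 and matplotlib 3.10.9 were used.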

Additional observations from a re-analysis of the deposited data

How the results depend on the processing

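Each condition has 1 library, so leaving out a replicate was not possible. No paired analysis was possible because each condition has 1 library. The assignment of exons to genes was not run. Of 53 alternatives, 22 stayed within the limits set for a change and 31 moved.

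The number of exons depended on the limits. Against 524, there were 1670 with a minimum of 5 reads, 153 with 20 and 35 with 50, 906 with at most 1 control read, and 8710 with 0.1 RPKM in place of reads, a limit that short exons pass with few reads. With at most 1 control read, 4.43% of exons with 10 to 19 reads and 0.731% of those with 20 to 49 were counted.

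The surroundings depended on the distance. Stretches with 0 control reads held 21.2% within 5 kb, 6.11% within 100 kb and 34.5% by the nearest exons, and 46% with under 10 reads as the limit. Expressed stretches held 15.8% within 1 kb, 36.8% within 5 kb, 85.1% within 100 kb and 27.1% by the nearest exons. For exons with at least 20 reads these shares were 22.9% and 39.9%. Internal exons were 15.6% within 1 kb and 88.4% within 100 kb, and clusters of at least 2 held 13% and 38.2%. The median length was 253 bases with at least 20 reads and 230.5 without duplicated runs. With neighbours within 1 kb, 40 exons had at least 10 predicted control reads. Within 10 kb, 188 had at least 3 and 28 had at least 20.

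The share with neighbours at least 2-fold higher, and its settings, were chosen after seeing the data. Against 48.4%, it was 65.7% with a pseudocount of 0.1, 33.8% with 1, 29.2% within 1 kb, 27.5% within 100 kb, and 57.9% with at least 50 reads on the neighbours. In each of these the share around all exons with at least 10 reads after BS008 was between 4.04% and 7.36%.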

Other observations

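Exons of at most 30 bases, which are too short for many reads to lie within them, were 9 of the 524 and were looked at after their values were seen. The share of such exons among all exons was not computed. The shortest, of 15 bases, lies on the plus strand of chromosome 9 from 131371930 to 131371944 and held no control read and 25 reads after BS008. Its nearest exons together had 1053 control reads and 719 after BS008, and all exons within 10 kb had 5482 and 4268, which gave 32.1 predicted control reads. An exon of 20 bases on chromosome 6 had 89.3 predicted control reads. The other 7 exons had 10 to 15 reads after BS008 and none reached 10 predicted control reads.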
